A study of Mus musculus with 18 samples.

Results

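The interleukin-1 (IL-1) family genes Il1b, Il1a, Il1rn, Il18, Il18bp, Il1rap and Il1r2 were examined in mouse peritoneal macrophages by RNA-seq. These 7 genes were chosen by name, as agonists, antagonists and receptor subunits of 1 cytokine family, and their symbols were matched to mouse Ensembl gene numbers in the deposited transcript tables. All 7 had a value and all 7 passed the filter on low values, out of 13598 genes with a value and 9707 genes tested. The macrophages came from TLR4-WT mice and from TLR4-K730R and TLR4-K810R mice, C57BL/6 knock-in animals made with CRISPR/Cas9, in which every cell of the body carries an arginine in place of that TIR-domain lysine of TLR4. Each genotype contributed mock-treated cells and cells given LPS at 100 ng/mL over 6 h, which made 6 groups of 3 libraries. All mice had received thioglycolate, so the cells were elicited macrophages in every group, collected by lavage. The labels do not say whether the 3 libraries of a group came from separate mice, so the p-values measure the spread between these libraries, which may be technical. The authors deposited FPKM, fragments scaled by transcript length and library size, for transcript events. First-exon FPKM and last-exon FPKM were each summed over a gene's transcripts, and the larger sum was used as the gene's level. The files hold no read counts, so depth is unknown.

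IL-1β (Il1b) and IL-1α (Il1a) bind the same receptor, made of IL-1R1 and the accessory protein IL-1RAP (Il1rap), which signals through MyD88 like TLR4 itself. The IL-1 receptor antagonist (Il1rn) occupies that receptor without signalling, and IL-1R2 (Il1r2) is a decoy that binds IL-1 and lacks the signalling TIR domain. IL-18 (Il18) acts through its own receptor pair, and IL-18 binding protein (Il18bp) is its soluble inhibitor. IL-1β and IL-18 are made as inactive precursors that caspase-1 cuts in inflammasomes, so their mRNA level does not give the level of active cytokine. In macrophages, Il1b is a well-known LPS-induced NF-κB target.

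Il1b, Il1a and Il1rn share a chromosome. In GRCm38, Il1b (ENSMUSG00000027398) lies at chr2:129364570-129371139 and Il1a (ENSMUSG00000027399) at chr2:129299610-129309972, both on the minus strand, and Il1rn (ENSMUSG00000026981) lies at chr2:24336853-24351494 on the plus strand. Il18 (ENSMUSG00000039217) lies at chr9:50554827-50581840 (plus), Il18bp (ENSMUSG00000070427) at chr7:102014885-102018690 (minus), Il1rap (ENSMUSG00000022514) at chr16:26581704-26730117 (plus) and Il1r2 (ENSMUSG00000026073) at chr1:40074079-40125231 (plus). All 7 are annotated as protein coding. On the strand of the gene every library listed 1 first exon for Il1b, chr2:129371068-129371139, and 1 for Il1a, chr2:129309921-129309972. Il1rn was listed with a distal first exon, chr2:24336853-24336992, and with a pair of overlapping proximal first exons, chr2:24345288-24345368 and chr2:24345310-24345571, which lie inside the gene.

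The 250 bases before the transcript start are shown for the agonist genes, which rose most, and for both Il1rn starts, whose use differed between libraries. They are RefSeq promoter sequences of GRCm38.p6, read 5′ to 3′ on the strand of the gene. The windows are chr2:129371140-129371389 (minus) for Il1b, chr2:129309973-129310222 (minus) for Il1a, chr2:24336610-24336859 (plus) for the distal start of Il1rn and chr2:24345041-24345290 (plus) for its proximal start. Capitals mark matches on either strand to the NF-κB-type motif (3 G, any 5 bases, then 2 C), the interferon-stimulated response element (GAAA, any 2 bases, then GAAA), the STAT-type motif TTCNNNGAA, the C/EBP-type motif TTNNGNAA, the AP-1 motif TGANTCA, the PU.1 core GAGGAA and the TATA box TATAAA.
Il1b: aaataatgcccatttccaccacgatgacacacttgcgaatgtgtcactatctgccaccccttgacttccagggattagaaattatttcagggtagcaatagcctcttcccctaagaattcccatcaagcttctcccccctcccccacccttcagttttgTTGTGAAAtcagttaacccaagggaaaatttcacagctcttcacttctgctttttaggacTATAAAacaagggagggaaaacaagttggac
Il1a: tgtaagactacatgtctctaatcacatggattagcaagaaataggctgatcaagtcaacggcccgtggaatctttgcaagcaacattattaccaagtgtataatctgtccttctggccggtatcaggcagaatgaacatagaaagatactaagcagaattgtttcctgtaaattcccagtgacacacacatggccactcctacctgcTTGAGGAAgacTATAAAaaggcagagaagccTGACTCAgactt
Il1rn distal: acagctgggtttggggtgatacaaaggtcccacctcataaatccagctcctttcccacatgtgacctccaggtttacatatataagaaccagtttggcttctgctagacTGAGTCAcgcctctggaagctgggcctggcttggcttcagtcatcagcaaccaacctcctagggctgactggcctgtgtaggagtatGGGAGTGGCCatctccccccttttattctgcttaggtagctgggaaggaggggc
Il1rn proximal: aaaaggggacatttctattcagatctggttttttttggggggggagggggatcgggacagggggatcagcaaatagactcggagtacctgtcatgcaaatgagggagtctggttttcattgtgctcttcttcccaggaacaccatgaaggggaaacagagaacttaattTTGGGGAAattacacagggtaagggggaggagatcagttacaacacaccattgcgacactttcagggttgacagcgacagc

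The Il1b and Il1a windows each held a TATA box, starting 31 and 32 bases before the start, and each held 1 C/EBP-type match, at 91 and 43 bases. Of 32851 RefSeq mouse promoter windows of this length, 12.4% held the TATA letters and 36.8% the C/EBP-type letters. In Il1a the C/EBP-type match overlaps a PU.1 core, which 23.3% of windows hold, and an AP-1 match, which 6.75% hold, starts 12 bases before the start. The distal Il1rn window held 1 AP-1 match at 141 bases and 1 NF-κB-type match at 54 bases, the latter found in 45.8% of all windows, and the printed proximal window held 1 C/EBP-type match at 81 bases. The printed proximal window ends at the short proximal exon. A second proximal RefSeq window, chr2:24345121-24345370, which overlaps it and is not printed, held 1 NF-κB-type match at 51 bases and 3 C/EBP-type matches. None of these 4 windows matched the interferon-stimulated response element or the STAT-type letters, which 2.98% and 7.02% of windows hold. A match is a description of letters and not a site, and no match says only that these letters are not in this window. Entries were found for all 7 genes, in 9 windows, of which 4 are printed.

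Before the members are compared, a pair of libraries needs to be named. Across the 9707 tested genes, the third TLR4-WT LPS library correlated with its own group at r = 0.966 and 0.962 and with the first and second TLR4-K730R LPS libraries at 0.970 and 0.970. The third TLR4-K730R LPS library correlated with its own group at 0.966 and 0.963 and with the first and second TLR4-WT LPS libraries at 0.969 and 0.974. The third TLR4-WT LPS library was about as close to the second and the third TLR4-K810R LPS libraries, at 0.970 each. In Il1b and Il1a the third TLR4-WT LPS library was the highest of its group and the third TLR4-K730R LPS library the lowest of its own, and in Il1rn, Il18 and Il18bp it was the other way round. Reg3b, an antimicrobial lectin of gut epithelium chosen here after its values were seen, did not cross, at 0.0928, 1.40 and 2.89 FPKM in the TLR4-WT LPS libraries and 30.9, 25.8 and 29.5 FPKM in TLR4-K730R LPS. In TLR4-K810R it was at 32.4, 29.5 and 45.7 FPKM in mock and 9.26, 0.194 and 0 FPKM in LPS libraries. Its level thus did not follow genotype alone, and it cannot decide which group a library belongs to. The labels were kept as given, and the comparisons between LPS groups, the LPS responses and the antagonist to agonist ratio are also given without these 2 libraries. That choice was made after seeing the data and partly on the members' own values.

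As a check on the cells, the macrophage markers Adgre1, Csf1r, Cd68, Lyz2, Mertk and Fcgr1 were listed in all 18 libraries, Adgre1 at 148 to 271 FPKM. The summed level of 7 of 8 macrophage markers, Itgam not being listed, was lower with LPS, at 11633 to 14785 FPKM in mock-treated and 7289 to 10057 FPKM in LPS-treated libraries, without overlap in any genotype, Lyz2 alone being at 5944 to 13291 FPKM. Tlr4, the mutated gene, was at 9.31 to 14.2 FPKM in mock-treated and 4.18 to 5.72 FPKM in LPS-treated libraries, in ranges that overlapped between genotypes. Cd14, a macrophage surface protein, was listed in only 1 library, at 463 FPKM, so a gene listed at 0 may still be expressed. Of 12 neutrophil markers 11 were listed, and their summed level was 59.7 to 77.9 FPKM in mock-treated and 233 to 347 FPKM in LPS-treated libraries. S100a8 (22.1 to 239 FPKM), Mmp9 (10.2 to 103 FPKM) and Mmp8 (4.97 to 20.6 FPKM) were listed in all 18 libraries and together made at least 93.2% of the sum. Of the others, Camp reached 6.38, Retnlg 2.67, S100a9 2.23 and Ltf 1.002 FPKM, the defining markers Ly6g, Cxcr2, Ngp and Mpo did not exceed 0.644, 0.132, 0.121 and 0.610 FPKM, and Elane was not listed. Of 6 dendritic cell markers 3 were listed, without Flt3, Xcr1 and Itgae, and their sum was 0 to 1.96 FPKM in mock-treated and 3.03 to 5.76 FPKM in LPS-treated libraries, the highest marker being Ccr7 at up to 4.95 FPKM. The summed mast cell markers were at 0.494 to 5.25 FPKM in mock-treated and 6.59 to 24.7 FPKM in LPS-treated libraries. Hdc reached 20.3 FPKM and no other listed mast cell marker exceeded 2.27 FPKM, so this sum largely follows 1 gene where it is high. Macrophage, neutrophil, dendritic cell and mast cell sums thus separated mock from LPS in every genotype, and their part in the members' LPS differences was not tested. Sums of mast cell, intestinal epithelium, and mesothelium and fibroblast markers are given beside the genotype comparisons. In these bulk libraries fewer cells of a type and less RNA per cell cannot be told apart.

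The first question was how LPS moved the family in each genotype. Il1b, Il1a, Il1rn, Il18 and Il18bp rose in all 3 genotypes, and the receptor genes Il1rap and Il1r2 did not pass the test in any of them. Genes were called at an adjusted p below 0.01 in limma with all 6 groups in 1 fit, on log2(FPKM + 1), a scale that understates the change of low genes. The 5 of 7 members called higher stand beside 10.4% of all tested genes called higher for TLR4-WT, 9.32% for TLR4-K730R and 9.08% for TLR4-K810R. No member was called lower, a direction that took 23.9%, 26.5% and 19.7% of all genes. Of all calls 30.4%, 26.1% and 31.5% were higher, and 52.2%, 53.5% and 51.5% with median-of-ratios scaling, under which the median LPS difference of all genes moved from -0.28, -0.36 and -0.26 to -0.01, -0.04 and -0.03 on the log2 scale. Without the third TLR4-WT and TLR4-K730R LPS libraries these 5 members were called in all 3 genotypes, and Il1r2 in TLR4-WT as well (limma adjusted p 0.00844). Groups did not overlap between mock and LPS for 6 of 7 members in each genotype, where 55%, 58.8% and 52.5% of all genes did not overlap.

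**Figure D1:**
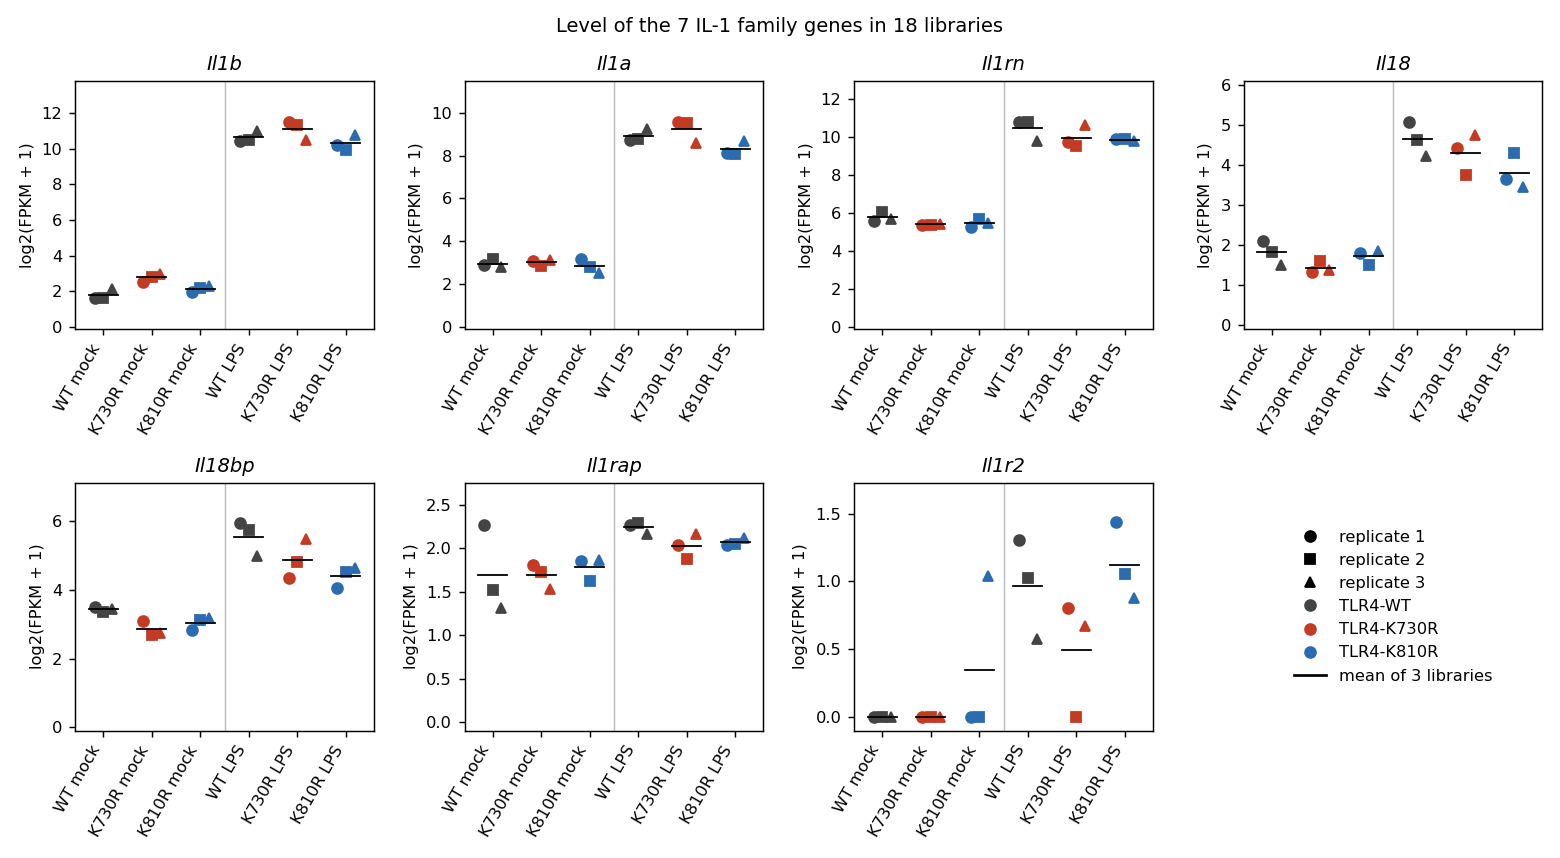
Level of each of the 7 genes in log2(FPKM + 1) on the vertical axis, by group along the horizontal axis, with a point per library, the marker shape for the replicate number and a line for the mean of 3 libraries. The LPS-treated libraries lie above the mock-treated ones for Il1b, Il1a, Il1rn, Il18 and Il18bp in all 3 genotypes, and Il1rap and Il1r2 stay at or below 3.92 FPKM.

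Il1b was barely expressed without LPS and became one of the most abundant members with it. In TLR4-WT it went from 2.07, 2.06 and 3.34 FPKM in mock-treated libraries to 1383, 1431 and 2026 FPKM with LPS. TLR4-K730R libraries moved from 4.83, 6.13 and 6.99 to 2869, 2559 and 1430 FPKM, and TLR4-K810R libraries from 2.88, 3.52 and 3.99 to 1182, 985 and 1703 FPKM. Every LPS library was far above every mock library. The log2 differences were 8.85 ± 0.26 (SE) for TLR4-WT, 8.31 ± 0.26 for TLR4-K730R and 8.15 ± 0.26 for TLR4-K810R, with limma adjusted p-values of 1.41e-12, 1.65e-12 and 2.5e-12. By absolute size the change of Il1b ranked 1 of 9707 genes for TLR4-WT, 1 for TLR4-K730R and 2 for TLR4-K810R.

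Il1a started slightly higher than Il1b and rose less. Its mock values were 6.30, 8.02 and 5.97 FPKM in TLR4-WT, 7.30, 6.17 and 7.73 for TLR4-K730R, and 8.10, 5.87 and 4.72 for TLR4-K810R. With LPS it reached 426, 437 and 606 FPKM in TLR4-WT, 764, 734 and 387 for TLR4-K730R, and 282, 271 and 415 for TLR4-K810R. The log2 differences were 5.97, 6.23 and 5.48 (SE 0.25 each), with adjusted p-values of at most 9.25e-11 in limma. The Il1a to Il1b ratio of FPKM was 1.01 to 3.89 over the 9 mock libraries and 0.238 to 0.308 over the 9 LPS libraries, so the agonist with the higher level changed with the treatment in every library.

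The antagonist Il1rn had the highest mock level of the family. It was at 47.0, 64.0 and 49.6 FPKM in mock-treated TLR4-WT, 40.3, 40.1 and 42.1 for TLR4-K730R, and 36.8, 49.9 and 42.9 for TLR4-K810R. With LPS it rose to 1725, 1745 and 878 FPKM in TLR4-WT, 832, 718 and 1566 for TLR4-K730R, and 942, 925 and 874 for TLR4-K810R. The log2 differences were 4.68, 4.55 and 4.38 (SE 0.27 each; limma adjusted p at most 2.46e-09). TLR4-K810R was the tightest group, while in TLR4-WT and TLR4-K730R the third library lay apart from the other two, in opposite directions.

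IL-18 and its binding protein moved less. Il18 went from 3.28, 2.56 and 1.82 FPKM to 32.6, 23.4 and 17.4 in TLR4-WT, from 1.48, 2.01 and 1.60 to 20.4, 12.5 and 25.6 in TLR4-K730R, and from 2.48, 1.81 and 2.60 to 11.4, 18.4 and 9.88 in TLR4-K810R. The log2 differences were 2.82, 2.88 and 2.07 (SE 0.27 each), with limma adjusted p-values of 4.52e-07, 3.44e-07 and 1.58e-05. Il18bp went from 10.3, 9.16 and 9.94 FPKM to 60.2, 52.4 and 30.5 in TLR4-WT, from 7.54, 5.46 and 5.73 to 19.3, 26.9 and 43.4 in TLR4-K730R, and from 6.15, 7.77 and 7.99 to 15.7, 21.9 and 23.9 in TLR4-K810R. The log2 differences were 2.12, 2.03 and 1.36 (SE 0.27 each), with limma adjusted p-values of 8.15e-06, 1.26e-05 and 0.000716. For both genes the LPS and mock libraries did not overlap in any genotype.

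The receptor genes stayed low. Il1rap, the shared accessory chain, was at 3.81, 1.87 and 1.48 FPKM in mock-treated TLR4-WT and 3.82, 3.92 and 3.49 with LPS. In TLR4-K730R it was at 2.51, 2.33 and 1.89 FPKM without LPS and 3.12, 2.68 and 3.48 with it, and in TLR4-K810R at 2.63, 2.08 and 2.65 FPKM and 3.12, 3.15 and 3.33. The log2 differences of 0.55, 0.34 and 0.29 (SE 0.19 each) did not pass the test, with limma adjusted p-values of 0.0287, 0.160 and 0.248. In TLR4-WT the first mock library alone listed a last exon at chr16:26665894-26665937, with 1.24 FPKM, and without that library the difference was 0.83 with a limma adjusted p of 0.000401. Median-of-ratios scaling also called Il1rap in TLR4-WT, at 0.79 (limma adjusted p 0.00358), and the other 29 alternatives did not.

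Il1r2, the decoy receptor, was listed at 0 in 8 of 9 mock libraries, the third TLR4-K810R mock library being at 1.05 FPKM. With LPS it was at 1.47, 1.03 and 0.492 FPKM in TLR4-WT, 0.746, 0 and 0.591 for TLR4-K730R, and 1.71, 1.07 and 0.835 for TLR4-K810R. Its limma adjusted p-values were 0.0117, 0.170 and 0.0414, and no fold is given against a group listed at 0. The TLR4-WT value passed the limma threshold in 9 of 30 alternatives, for example at an adjusted p of 0.00694 without the third TLR4-WT LPS library. The TLR4-K810R value passed in 2 of 30, 1 of them at 0.00347 without the third mock library. The summed neutrophil markers given above were also higher with LPS, and their part in the Il1r2 values was not tested.

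**Figure D2:**
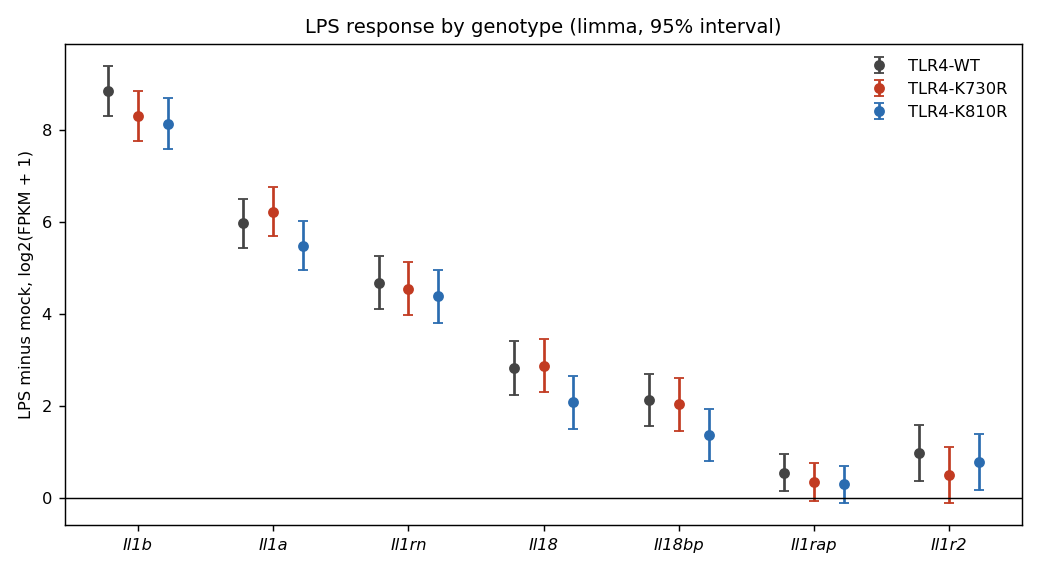
LPS minus mock difference in log2(FPKM + 1) on the vertical axis for each gene on the horizontal axis and each genotype, from limma, with bars for the 95% interval. Il1b stands at 8.15 to 8.85, Il1a at 5.48 to 6.23, Il1rn at 4.38 to 4.68, and the intervals of the 3 genotypes overlap for every gene.

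Whether the size of the LPS response differed between genotypes was tested as an interaction. No member passed, where 0.0412% of all genes passed for TLR4-K730R against TLR4-WT and 0.124% for TLR4-K810R against TLR4-WT, and no member had an unadjusted p below 0.05 in limma, as 7.02% and 13.2% of all genes had. All 7 responses were smaller in TLR4-K810R than in TLR4-WT by point estimate, with a median difference of -0.49 beside 0.035 for all genes. The differences were -0.71 for Il1b (95% interval -1.48 to 0.07), -0.75 for Il18 (-1.57 to 0.07), -0.76 for Il18bp (-1.57 to 0.04), -0.49 for Il1a (-1.24 to 0.27) and -0.30 for Il1rn (-1.11 to 0.51), with limma adjusted p-values from 0.409 to 0.781. For TLR4-K730R against TLR4-WT the differences were -0.55 for Il1b (-1.32 to 0.23), 0.25 for Il1a (-0.50 to 1.01), -0.13 for Il1rn (-0.94 to 0.68), 0.05 for Il18 (-0.77 to 0.88) and -0.09 for Il18bp (-0.90 to 0.71). All 10 intervals include 0, and 7 of them also include a difference of 1 in size on the log2 scale, which is a change of the response by 2 times. Both mutant comparisons share the TLR4-WT libraries. Differences between mock libraries also enter these values. Il1b without LPS was 0.37 higher in TLR4-K810R and 1.01 higher in TLR4-K730R than in TLR4-WT. With LPS it was 0.34 lower in TLR4-K810R and 0.46 higher in TLR4-K730R. Il1r2 was higher in TLR4-K810R than in TLR4-WT both without LPS, by 0.35, and with it, by 0.16. Without the third TLR4-WT and TLR4-K730R LPS libraries no member was called for either mutant in limma, where 0.309% and 1.17% of all genes were. For TLR4-K810R the differences were then -1.05 for Il18bp (limma adjusted p 0.0401), -0.96 for Il18 (0.169), -0.62 for Il1rn (0.0852), -0.53 for Il1b (0.361) and -0.33 for Il1a (0.571). For TLR4-K730R they were -0.79 for Il1rn (limma adjusted p 0.0879), 0.74 for Il1a (0.311), -0.68 for Il18bp (0.319), -0.37 for Il18 (0.758) and -0.064 for Il1b (0.957), with the sign for Il18 turned.

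Without LPS, the largest genotype difference among the members was in Il1b. All 3 mock TLR4-K730R libraries, from 4.83 to 6.99 FPKM, lay above all 3 mock TLR4-WT libraries, from 2.06 to 3.34 FPKM, and above all 3 mock TLR4-K810R libraries, from 2.88 to 3.99 FPKM. The log2 difference between TLR4-K730R and TLR4-WT was 1.01 ± 0.26 (SE; 95% interval 0.46 to 1.56), with a p of 0.00133 that became 0.147 after limma adjustment over all genes. In the same comparison Il1rn (40.1 to 42.1 against 47.0 to 64.0 FPKM) and Il18bp (5.46 to 7.54 against 9.16 to 10.3 FPKM) lay lower in every TLR4-K730R library. Such separation held for 3 of 7 members and for 16.4% of all genes. Adjusted p-values were 0.849 for Il1rn and 0.630 for Il18bp in limma, and no member was called, where 0.268% of all genes were called. Il1b and Il18bp, 2 of 7 members, had an unadjusted p below 0.05, as did 7.7% of all genes.

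Between TLR4-K810R and TLR4-WT without LPS, 1 of 7 members separated, Il18bp, at 6.15 to 7.99 FPKM in TLR4-K810R and 9.16 to 10.3 FPKM in TLR4-WT, where 20.8% of all genes separated. Its log2 difference of -0.38 (95% interval -0.95 to 0.18) had a limma adjusted p of 0.585. No member was called and none had an unadjusted p below 0.05, while 1.58% of all genes were called and 14.1% had such a p. Between the mutants, 1 of 7 members separated, Il1b, at a log2 difference of -0.64 for TLR4-K810R against TLR4-K730R (limma adjusted p 0.368), where 18.7% of all genes separated. No member was called and only Il1b had an unadjusted p below 0.05 in limma, where 0.0824% of all genes were called and 10.4% had such a p.

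Markers of other cell types also differed between the mock groups. The summed mast cell markers were at 4.79 to 5.25 FPKM in TLR4-WT, 0.494 to 2.99 FPKM for TLR4-K730R and 0.870 to 3.12 FPKM for TLR4-K810R, with 6 of 8 listed and Fcer1a and Ms4a2 not among them. The summed intestinal epithelium markers, 7 of 8 listed without Cdx2, were at 0.118 to 0.594 FPKM in TLR4-WT, 6.56 to 32.4 FPKM for TLR4-K730R and 10.3 to 48.7 FPKM for TLR4-K810R. The summed mesothelium and fibroblast markers, 9 of 9 listed, were at 34.4 to 51.9 FPKM in TLR4-WT, 65.9 to 78.3 FPKM for TLR4-K730R and 129 to 306 FPKM for TLR4-K810R, without overlap between any of the groups. Mast cell markers thus separated TLR4-WT from both mutants in the direction of Il18bp. Intestinal markers, and mesothelium and fibroblast markers, separated TLR4-K730R from TLR4-WT in the direction of Il1b and TLR4-K810R from TLR4-WT as well. Their part in the members' values was not tested.

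With LPS, the means of Il1b and Il1a were highest in TLR4-K730R and those of Il1rn, Il18 and Il18bp in TLR4-WT, and the order itself was not tested. The mean of Il1b was 2286 ± 758 FPKM (SD, n = 3) in TLR4-K730R, 1613 ± 358 in TLR4-WT and 1290 ± 371 in TLR4-K810R, and that of Il1a was 628 ± 210, 490 ± 101 and 323 ± 79.9 FPKM in the same order. Il1rn, Il18 and Il18bp had their highest mean in TLR4-WT, with 1449 ± 495, 24.5 ± 7.67 and 47.7 ± 15.4 FPKM. TLR4-K730R followed at 1039 ± 460, 19.5 ± 6.61 and 29.9 ± 12.3 FPKM, and TLR4-K810R was lowest at 914 ± 35.2, 13.2 ± 4.55 and 20.5 ± 4.27 FPKM. Of these neighbouring means, the libraries overlapped for every pair but Il1a between TLR4-WT and TLR4-K810R.

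In TLR4-K730R against TLR4-WT with LPS no member was called, and no gene of the 9707 was (0%), although 746 genes (7.69%) had an unadjusted p below 0.05. Il18bp was the only member with one, at a log2 difference of -0.68 (95% interval -1.25 to -0.11; adjusted p 0.617 in limma). The differences were 0.46 for Il1b (-0.09 to 1.01), 0.31 for Il1a (-0.22 to 0.85), -0.50 for Il1rn (-1.07 to 0.07) and -0.33 for Il18 (-0.91 to 0.25). Of the 7 members 1 separated, Il1rap, at 2.68 to 3.48 FPKM in TLR4-K730R and 3.49 to 3.92 FPKM in TLR4-WT, against 10.9% of all genes. The summed intestinal epithelium markers with LPS also separated, at 0 to 7.17 FPKM for TLR4-WT and 7.56 to 11.3 FPKM for TLR4-K730R, and their part in these values was not tested.

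Leaving out the third LPS library of both groups moved this comparison. For Il1rn and Il18bp it took out the lowest TLR4-WT and the highest TLR4-K730R value, which moves the means apart by construction. The libraries were picked partly on these values, so the calls that follow describe the other libraries and are no test. Il1rn and Il18bp were then called lower in TLR4-K730R, with log2 differences of -1.17 (limma adjusted p 0.000891) and -1.27 (adjusted p 0.00425). These are 2 of 7 members, beside 1.66% of all genes called in that fit, up from none. Il1b at 0.95 (adjusted p 0.0410) and Il1a at 0.79 (adjusted p 0.0642) were not called in limma. Without replicate 3 of every group, Il1b at 0.95 and Il1rn at -1.17 were called, each at an adjusted p of 0.00998 in limma, beside 0.968% of all genes. The first and second libraries thus had more agonist and less antagonist mRNA in TLR4-K730R than in TLR4-WT, whereas of the 2 libraries left out the TLR4-K730R one had less Il1b (1430 against 2026 FPKM) and more Il1rn (1566 against 878 FPKM).

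**Figure D3:**
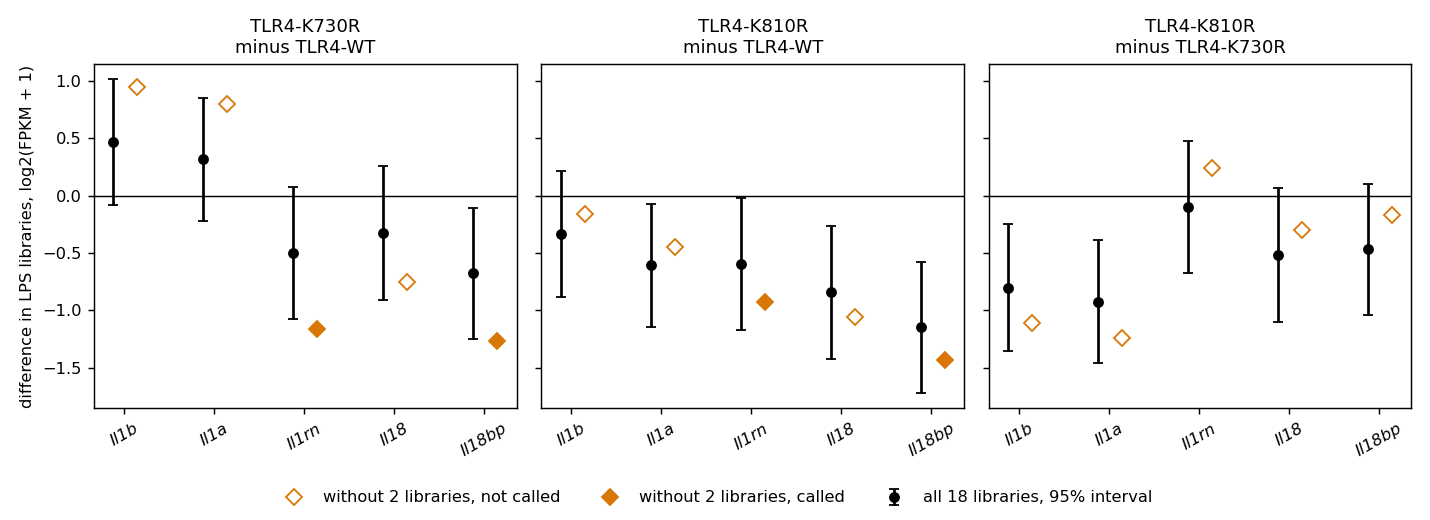
Difference between genotypes in the LPS-treated libraries, in log2(FPKM + 1), for the 5 induced genes, with black points and 95% intervals for all 18 libraries and orange diamonds for the fit without the third TLR4-WT LPS and TLR4-K730R LPS libraries, filled where called. Of these fits, the one without the 2 libraries calls Il1rn and Il18bp against TLR4-WT in both mutants and the one with all libraries calls neither. The 2 libraries were picked partly on these genes' own values, so the filled diamonds are no test.

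TLR4-K810R against TLR4-WT with LPS showed lower point estimates in 6 of 7 members. Il18bp, the IL-18 inhibitor, was nearest to a call, at 15.7 to 23.9 FPKM in TLR4-K810R against 30.5 to 60.2 FPKM in TLR4-WT. Its log2 difference was -1.15 (95% interval -1.72 to -0.58), with a p of 0.000601 and a limma adjusted p of 0.0399. Il18 followed at -0.84 (-1.42 to -0.26; adjusted p 0.101 in limma), Il1a at -0.61 (-1.14 to -0.07; 0.181), Il1rn at -0.60 (-1.17 to -0.02; 0.212) and Il1b at -0.34 (-0.89 to 0.21; 0.477). No member was called, where 0.134% of all genes were called, and 4 of 7 had an unadjusted p below 0.05, as had 21.8% of all genes. Il1a, Il18bp and Il1rap separated, 3 of 7 members, beside 25.3% of all genes. The summed mast cell markers with LPS were 13.0 to 24.7 FPKM for TLR4-WT, 7.11 to 22.8 FPKM for TLR4-K730R and 6.59 to 10.02 FPKM for TLR4-K810R, so that they separated TLR4-WT from TLR4-K810R in the direction of Il18bp. Most of the highest sum was Hdc, at up to 20.3 FPKM, and no other listed mast cell marker exceeded 2.27 FPKM. Their part in the Il18bp difference was not tested.

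The call for Il18bp depended on the third TLR4-WT LPS library. Without it the log2 difference was -1.43 with a limma adjusted p of 0.00597 in a fit that called 2.92% of all genes, and with library weights, which give less weight to a library that lies far from its group, it was -1.29 with an adjusted p of 0.00413, beside 3.77% of all genes. Without the third LPS library of both TLR4-WT and TLR4-K730R, Il18bp at -1.43 (adjusted p 0.000459) and Il1rn at -0.92 (adjusted p 0.00102) were called in limma, 2 of 7 members beside 5.94% of all genes. More genes across the whole table passed in these fits, and not these members alone. The third TLR4-WT LPS library was the lowest of its group for both genes. The 2 libraries were picked partly on such values, so the calls without them are no test. The direction for Il18bp was the same in all 32 alternatives, from -1.55 to -0.96, of which 4 called it.

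Between the mutants with LPS, the largest point estimates were those of the agonists. The log2 difference of TLR4-K810R against TLR4-K730R was -0.92 for Il1a (95% interval -1.46 to -0.39; limma adjusted p 0.0709), -0.80 for Il1b (-1.35 to -0.25; adjusted p 0.114) and -0.10 for Il1rn (-0.67 to 0.47). The third TLR4-K730R LPS library, at 387 FPKM for Il1a and 1430 FPKM for Il1b, fell inside the TLR4-K810R range for both. No member was called, where 0.0618% of all genes were called, and Il1b, Il1a and Il1r2 had an unadjusted p below 0.05 in limma, 3 of 7 members beside 18.8% of all genes. Only Il1r2, at 0 to 0.746 FPKM for TLR4-K730R and 0.835 to 1.71 FPKM for TLR4-K810R, separated, beside 25.8% of all genes. The intestinal markers were at 0.127 to 4.74 FPKM in TLR4-K810R with LPS, below the TLR4-K730R libraries, as the point estimates of Il1a and Il1b were. The mesothelium and fibroblast markers were at 50.0 to 51.1 FPKM for TLR4-K730R and 108 to 128 FPKM for TLR4-K810R, higher in the latter, as Il1r2 was. The part of these markers was not tested. Without the third TLR4-WT and TLR4-K730R LPS libraries the differences were -1.24 for Il1a (limma adjusted p 0.0130), -1.11 for Il1b (0.0330) and 0.24 for Il1rn (0.446), and no member was called, beside 0.237% of all genes. Without replicate 3 of every group, Il1a at -1.43 (adjusted p 0.00956) and Il1b at -1.33 (adjusted p 0.00887) were called in limma, beside 0.0824% of all genes.

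The libraries of a group varied along 1 pattern for the agonists. After subtracting group means, Il1b and Il1a moved together over the 9 LPS libraries (Pearson r = 0.985, Spearman 0.983), and they still did without the third TLR4-WT and TLR4-K730R libraries (0.962 over 7 libraries). Il1rn moved against Il1b over 9 libraries (r = -0.813, Spearman -0.733) and with Il18bp (r = 0.811). Without the 2 libraries these became -0.20 and -0.826 over 7, so the opposite movement of agonist and antagonist within groups rested on those libraries. The values within a library share its normalisation, and these correlations are given as a description.

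**Figure D4:**
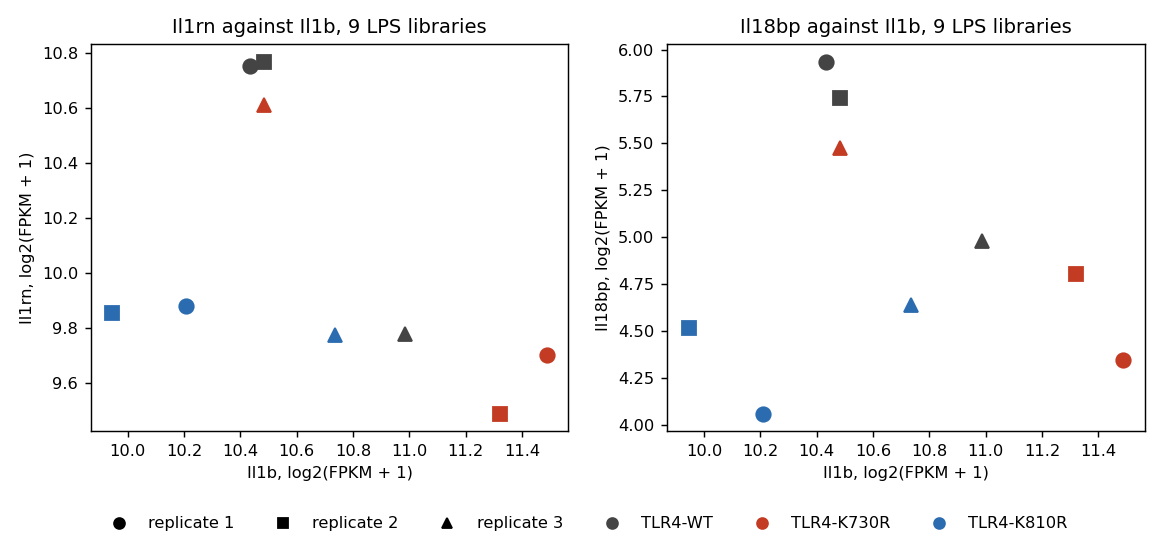
Il1rn (left) and Il18bp (right) against Il1b in the 9 LPS-treated libraries, both axes in log2(FPKM + 1), with colour for the genotype and marker shape for the replicate. On the left, the third TLR4-K730R library (1430 FPKM of Il1b, 1566 of Il1rn) sits beside the first and second TLR4-WT libraries. The third TLR4-WT library (2026 and 878 FPKM) lies between the TLR4-K810R and the other TLR4-K730R libraries in Il1b and inside the TLR4-K810R range in Il1rn. On the right, its Il18bp of 30.5 FPKM is above all TLR4-K810R libraries (15.7 to 23.9 FPKM) and the other TLR4-K730R libraries (19.3 and 26.9 FPKM).

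The balance of antagonist to agonist was expressed as the ratio of Il1rn to summed Il1a and Il1b FPKM. Without LPS the antagonist exceeded the agonists in every library, with ratios of 5.62, 6.35 and 5.33 in TLR4-WT, 3.32, 3.26 and 2.86 for TLR4-K730R, and 3.35, 5.31 and 4.92 for TLR4-K810R. The libraries of the 3 genotypes did not overlap, TLR4-WT being highest and TLR4-K730R lowest, and the mock ratio was not tested between genotypes. With LPS the agonists exceeded the antagonist in every library. The ratios were 0.953, 0.934 and 0.334 in TLR4-WT, 0.229, 0.218 and 0.862 for TLR4-K730R, and 0.644, 0.736 and 0.413 for TLR4-K810R. The difference in log2 ratio was -0.93 for TLR4-K730R against TLR4-WT (exact permutation p = 0.2, adjusted 0.6 over 3 pairs), -0.20 for TLR4-K810R against TLR4-WT (exact p = 0.6, adjusted 0.6) and 0.73 for TLR4-K810R against TLR4-K730R (exact p = 0.4, adjusted 0.6). These tests are two-sided, and 3 libraries against 3 cannot give a p below 0.1. Single libraries moved these differences. TLR4-K730R against TLR4-WT was at -1.43 without the third TLR4-WT library, -1.58 without the third TLR4-K730R library and -0.59 without the second TLR4-K730R library. TLR4-K810R against TLR4-K730R was at 0.42 without the first TLR4-K730R library, 0.39 without the second and 1.38 without the third. TLR4-K810R against TLR4-WT changed sign, to at most 0.0561, without the first or second TLR4-WT library or the third TLR4-K810R library. Without the third TLR4-WT and TLR4-K730R libraries, the difference of TLR4-K730R against TLR4-WT was -2.08, with an exact permutation p of 0.333, the smallest that 2 against 2 allows. The difference of TLR4-K810R against TLR4-K730R was then 1.38, without overlap, at an exact permutation p of 0.1, the smallest that 2 against 3 allows, and that of TLR4-K810R against TLR4-WT was -0.70 (exact p = 0.2). These libraries were left out after their ratios had been seen.

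For the second cytokine, Il18bp exceeded Il18 in every library but 1. The ratio of Il18bp to Il18 was 3.14, 3.58 and 5.47 in mock TLR4-WT, 5.11, 2.71 and 3.57 in mock TLR4-K730R, and 2.48, 4.29 and 3.08 in mock TLR4-K810R. With LPS it was 1.84, 2.24 and 1.75 in TLR4-WT, 0.947, 2.15 and 1.70 for TLR4-K730R, and 1.37, 1.19 and 2.41 for TLR4-K810R. The difference in log2 ratio of LPS against mock was -1.03 for TLR4-WT, -1.28 for TLR4-K730R and -1.02 for TLR4-K810R, and the libraries did not overlap in any genotype. Each had an exact permutation p of 0.1, the smallest possible, and 0.3 after adjustment over 9 pairs. No pair of genotypes separated in mock or LPS, with exact permutation p-values from 0.4 to 0.9.

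The Il1rn total came from different first exons in different libraries. In all 9 mock libraries the distal first exon made 79.3% to 85.6% of the listed first-exon FPKM. It made 80.3%, 77.7% and 80.2% in TLR4-WT with LPS, 75.6% and 79.6% in the second and the third TLR4-K730R LPS libraries, and 77.1% in the third TLR4-K810R LPS library. In the first TLR4-K730R LPS library and in the first and second TLR4-K810R LPS libraries it made 15.7%, 17.7% and 16.2%. There the long proximal exon was listed at 655, 722 and 721 FPKM, above the 148 to 347 FPKM of the other 6 LPS libraries. The Il1rn totals of these 3 libraries were 832, 942 and 925 FPKM, where the other libraries of their groups had 718 and 1566 FPKM (TLR4-K730R) and 874 FPKM (TLR4-K810R). FPKM of transcripts that share exons are estimates that divide shared reads, so these shares are given with no test. In mock libraries the same long proximal exon was at 1.82 to 6.52 FPKM, and every LPS library was above that.

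**Figure D5:**
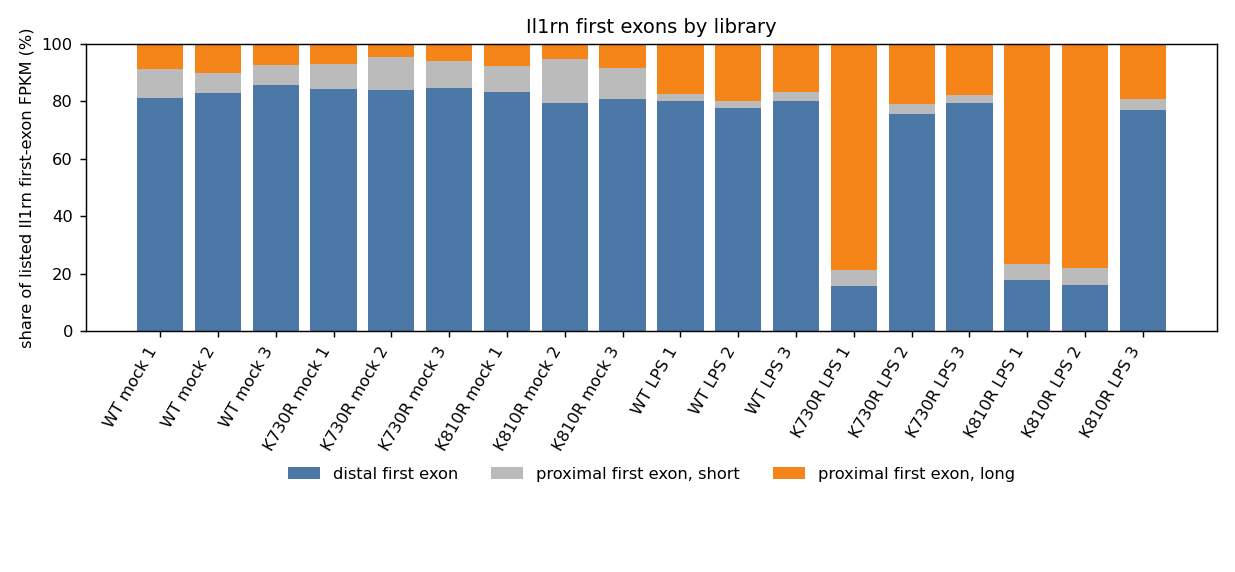
Share of the listed Il1rn first-exon FPKM in percent for each of 18 libraries, stacked by the distal first exon, the short proximal first exon and the long proximal first exon. The distal exon makes 75.6% to 85.6% in 15 libraries and 15.7% to 17.7% in the other 3, all LPS-treated mutants.

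Other genes of the pathway give the setting. A list of 56 further genes for IL-1 family ligands, receptors, inflammasomes, processing, signalling and its inhibitors had 40 tested members. With LPS 19 were called higher and 5 lower in TLR4-WT, 16 and 7 for TLR4-K730R, and 17 and 5 for TLR4-K810R. The median log2 difference of the 40 was 0.67, 0.41 and 0.40, and that of all genes -0.28, -0.36 and -0.26. None of the 40 was called in limma in any comparison between genotypes, whether of levels or of the size of the LPS response. There 2 to 11 of them had an unadjusted p below 0.05, as had 7.02% to 21.8% of all genes. The shares of all genes called with LPS, given above as 10.4%, 9.32% and 9.08% higher and 23.9%, 26.5% and 19.7% lower, stand beside the counts by role that follow, which come from lists of 1 to 13 tested genes.

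Of the 6 other ligand genes only Il33, an alarmin of stromal cells, was tested. It was listed at 0 in the mock TLR4-WT and TLR4-K730R libraries and at 0.0315, 0.125 and 1.09 FPKM in mock TLR4-K810R. With LPS it was at 4.53, 0.973 and 3.88 FPKM in TLR4-WT, 0.666, 0.659 and 1.05 for TLR4-K730R, and 1.38, 1.47 and 1.62 for TLR4-K810R. Its LPS difference passed the test in TLR4-WT (limma adjusted p 0.000136), and had adjusted p-values of 0.0407 and 0.0356 in the mutants. The interaction did not pass for either mutant (limma adjusted p 0.655 and 0.342). Of the 8 receptor genes 2 were tested. Il1rl2, the IL-36 receptor, rose by 1.44 in TLR4-WT (limma adjusted p 0.000512) and by 1.23 in TLR4-K810R (0.00212), with 0.87 in TLR4-K730R (0.0166). Il1r1, the signalling IL-1 receptor chain, rose by 1.24 in TLR4-WT (limma adjusted p 0.000719) and its differences were 0.20 and 0.45 in TLR4-K730R and TLR4-K810R. Il1r1 was low, from a mean of 1.04 FPKM in mock TLR4-WT to 4.60 FPKM in LPS-treated TLR4-K810R. The 9 mesothelial and fibroblast markers summed to 34.4 to 51.9 FPKM in mock TLR4-WT, 65.9 to 78.3 in mock TLR4-K730R and 129 to 306 in mock TLR4-K810R, and to 45.4 to 150, 50.0 to 51.1 and 108 to 128 FPKM with LPS. Their part in the levels of Il33, Il1rl2 and Il1r1 was not tested.

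Genes for the processing of IL-1β and IL-18 moved in both directions with LPS. Among 8 tested inflammasome genes 4 were called higher and 2 lower in each genotype. Nlrp3, the sensor that LPS primes, rose by 2.99, 3.25 and 3.26 in TLR4-WT, TLR4-K730R and TLR4-K810R, and Mefv, which encodes pyrin, by 2.87, 3.06 and 2.38. Nlrc4, which assembles with the NAIP receptors of bacterial proteins, rose by 1.04, 0.84 and 0.88, and Nek7, which binds NLRP3, fell by 0.90, 1.18 and 1.13. Of the 9 tested protease and pore genes 4, 4 and 3 were called higher and 0, 1 and 1 lower in TLR4-WT, TLR4-K730R and TLR4-K810R. The gene called lower in the mutants was P2rx7, the ATP-gated channel upstream of NLRP3, which fell by 0.98 and 1.08 (limma adjusted p 0.00540 and 0.00348) and stood at -0.62 in TLR4-WT (0.0628). It is named here after its values were seen, as is Tollip among the inhibitors. Casp4, which encodes the intracellular LPS sensor caspase-11, rose by 2.97, 2.85 and 2.70. Casp1, whose product cuts both cytokines, rose by 1.98, 1.83 and 1.56, and Gsdmd, the pore former of pyroptosis, by 1.17, 1.36 and 1.30. Casp8 rose by 1.12 and 0.83 in TLR4-WT and TLR4-K730R and stood at 0.50 in TLR4-K810R (limma adjusted p 0.0270).

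Of 13 tested receptor signalling genes, 3, 3 and 4 were called higher and 2, 3 and 2 lower in TLR4-WT, TLR4-K730R and TLR4-K810R. The adaptor Myd88 rose by 1.46, 1.65 and 1.47, the ubiquitin ligase Peli1 by 1.37, 1.23 and 1.13 and the kinase Irak2 by 0.79, 0.65 and 0.51, whereas Tab1, a TAK1 partner, fell by 0.69, 0.74 and 0.70. Of the 7 tested genes on the list of inhibitors, not all of them plain brakes on receptor signalling, 5 were called higher in each genotype. Tollip, which dampens IRAK signalling, was called lower in TLR4-WT and TLR4-K730R, where it fell by 0.48 and 0.42, and stood at -0.31 in TLR4-K810R (limma adjusted p 0.0122). Irak3, a kinase-dead brake on the receptor, rose by 2.61, 2.40 and 2.73, Nfkbia, which encodes IκBα, by 2.60, 2.37 and 2.67, the deubiquitinase Tnfaip3 by 2.38, 2.32 and 2.32 and Nfkbiz by 2.31, 2.34 and 2.37.

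By Pearson's r of log2(FPKM + 1) over the 18 libraries, the genes most like Il1b were Nfkbia (0.996), Tnf (0.996) and Nfkb2 (0.995), and those most like Il1a were Tnfsf15 (0.996), Fosl2 (0.995) and Il1b (0.994). For Il1rn they were Pdpn (0.997), Slamf9 (0.995) and Gbp5 (0.995), for Il18 A330040F15Rik, Tpst1 and Nmi (0.985 each) and for Il18bp Rnf135 (0.976), Irgm1 (0.973) and Cnp (0.973). Il1rap was most like Edn1 (0.834), Wsb1 (0.820) and Cyfip1 (0.820), and Il1r2 most like Sfr1 (0.901), Rab12 (0.873) and Tmem128 (0.849). These values mostly restate the step from mock to LPS. After subtracting group means, Il1b was most like Ccl3 (0.896), Abhd17c (0.868) and Csf3 (0.855) over the 18 libraries.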

How the data were processed

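The authors deposited FPKM values for 20 kinds of transcript event per library, in 80071 to 90401 rows with mouse Ensembl numbers. RNA was isolated with a column kit and sequenced on an Illumina platform by a service provider. Aligner, counting program and test are not given in the sources used here. The submitters' processing notes name the human build hg18, whereas the coordinates match mouse GRCm38 (GENCODE M21). Events on the strand opposite to the named gene, or with no base inside its annotated span, were left out, which dropped 5.99% of first-exon and last-exon FPKM. The 9707 of 13598 genes that reached 1 FPKM in 3 or more of the 18 libraries were tested with limma 3.58.1 (R 4.3.3) on log2(FPKM + 1), with all 6 groups in 1 fit, an intensity trend, Benjamini-Hochberg adjustment over all 9707 genes and a threshold of 0.01. Ratios were tested by exact permutation. On simulated data with 200 changed genes limma called 90.2% of genes shifted by 4 times and 59.4% of those shifted by 2 times for LPS against mock in TLR4-WT. For the difference in LPS response of TLR4-K810R against TLR4-WT it called 79.8% and 27.4%. The changed genes were drawn from those at higher mean levels, so these shares do not cover genes as low as Il1r2. With 200 changed genes the adjustment is more lenient than in the data, where 12 genes were called for that difference, so its shares may be too high. Named genes were the 7 members, up to 4 called pathway genes per role with the largest LPS change in TLR4-WT, and the 3 most alike genes per member. Reg3b, P2rx7 and Tollip were added after their values were seen. Members, lists and tests were chosen with earlier results of these data known. Markers of eosinophils, B cells, T cells, dendritic cells and lung epithelium were also summed, and over the 18 libraries the sums reached at most 2.79, 3.66, 0.958, 5.76 and 34.7 FPKM, the last in TLR4-K810R with LPS. Same-numbered libraries did not deviate together, so no block was used. Alternatives covered pseudocounts, filters, scaling, weights, the replicate block, gene values and left-out libraries.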

Additional observations from a re-analysis of the deposited data

Results flagged for a closer look

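A few entries that carry a member's Ensembl number lie on the opposite strand and entered no gene value. They were seen only in LPS-treated libraries and in none of the 9 mock libraries. In the third TLR4-WT LPS library, a plus-strand transcript over Il1a was listed with a first exon at chr2:129299714-129299814 and a last exon at chr2:129299848-129299995, each at 11.6 FPKM, where Il1a itself was at 606 FPKM. Over Il1rn, minus-strand first exons were listed at 1.10 FPKM in the first TLR4-WT LPS library (chr2:24349917-24350055) and at 1.55 FPKM in the second TLR4-K810R LPS library (chr2:24349701-24349849), the latter with a last exon at 1.55 FPKM (chr2:24348516-24348599). Each appears in 1 of 3 libraries of its group, and the sources used here do not say whether the libraries kept strand.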

How the results depend on the processing

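The 5 LPS-induced members were called higher in all 3 genotypes under every alternative that gave a value, except that Il18 has almost no last-exon entries and dropped out of the last-exon sums, for which the Il18bp to Il18 ratio was not computed. With the replicate block the count of members called stayed at 5 in each LPS response and 0 in each genotype comparison, and same-numbered residuals correlated at -0.32 to 0.099. For TLR4-K730R against TLR4-WT with LPS, 2 members were called without the third LPS library of both groups (1.66% of all genes) and 2 without replicate 3 of all groups (0.968%). Between TLR4-K810R and TLR4-WT with LPS, 1 was called with library weights (3.77% of all genes), 0 to 1 with a single library left out, 2 without the same 2 libraries (5.94%) and 1 without replicate 3 (2.38%). For TLR4-K810R against TLR4-K730R with LPS, 2 were called without replicate 3 (0.0824%). The Il1rn difference between the mutants with LPS turned from -0.10 to 0.0519 with library weights, to 0.24 without the third TLR4-K730R LPS library or the same 2 libraries, and to 0.27 without replicate 3, and passed no threshold. With 1 library left out, the log2 ratio of Il1rn to agonists ranged from -0.70 to 0.0561 between TLR4-K810R and TLR4-WT with LPS. The log2 ratio of Il18bp to Il18 ranged from -0.34 to 0.13 for TLR4-K730R against TLR4-WT without LPS, from -0.42 to 0.0382 for TLR4-K810R against TLR4-K730R without LPS and from -0.28 to 0.32 with LPS. Leaving out the third TLR4-WT and TLR4-K730R LPS libraries together, and replicate 3 of all groups, were alternatives chosen after seeing the data. Both leave out libraries that were picked partly on the members' own values, so their calls of members are no test. The causes were not tested. With unknown depth, values near the filter of 1 FPKM, such as those of Il1r2, Il1rap and mock Il18 and Il1b, have no stated precision.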

Other observations

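Il18 was listed with 4 first exons, starting at 50554811, 50565374, 50575273 and 50577589 on chromosome 9, and their mix varied between libraries of a group. In TLR4-WT with LPS the exon at 50565374 made 28.7% to 64.0% of the listed first-exon FPKM and the exon at 50575273 made 18.4% to 67.5%. In TLR4-K730R with LPS they made 26.8% to 68.5% and 2.28% to 70.3%, and in TLR4-K810R with LPS 20.9% to 26.1% and 37.6% to 57.8%. These shares come from few FPKM and carry no test. The last exon of Il1rap at chr16:26714701-26717744 was at 1.48 to 3.92 FPKM, and that of a shorter transcript at chr16:26701088-26702356 did not exceed 0.0013 FPKM in any library.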
